A study of Rattus norvegicus with 64 samples.

Results

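The chemokine receptor genes Ccr1, Cxcr1, Cxcr2, Ccrl2, Ccr6, Ccr9, Cxcr3, Cxcr6 and Cxcr4 were followed in whole blood of rats given saline or amphetamine (AMPH) in different environments. They were found by matching the symbol in each count table to these 9 names, and each of the 9 had a single entry in all 64 tables, out of 26405 genes listed in any table. Ccr1 (ENSRNOG00000006715), Cxcr1 (ENSRNOG00000048239), Cxcr2 (ENSRNOG00000014269) and Ccrl2 (ENSRNOG00000033234) were treated as the 4 myeloid receptors. Ccr6 (ENSRNOG00000012964), Ccr9 (ENSRNOG00000006311), Cxcr3 (ENSRNOG00000003305) and Cxcr6 (ENSRNOG00000006319) were treated as the 4 lymphoid receptors. Cxcr4 (ENSRNOG00000003866), which most leukocytes carry, was kept apart.

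Chemokine receptors are G protein-coupled receptors of the leukocyte surface. A ligand secreted in a tissue, or held on the vessel wall, binds the receptor and turns the cell's movement toward it through Gi proteins, PI3-kinase and Rac. In blood they decide which cells leave, stay or return: Cxcr2 draws neutrophils out of the marrow and into inflamed tissue, whereas Cxcr4, the receptor of Cxcl12, holds neutrophils and progenitors in the marrow and brings aged neutrophils back to it. Cxcr3 and Cxcr6 mark activated and memory T cells and natural killer (NK) cells, Ccr6 marks B cells and Th17 cells, and Ccr9 guides lymphocytes to the gut and thymus.

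All animals were male Sprague-Dawley rats of 85 to 90 days, each the source of 1 library. Each received 4 injections 2 h apart, and blood was drawn by cardiac puncture 3 h after the last. Saline was given at 22.5 C (saline control, 6 rats), at 16 C (saline cool, 5 rats) or at 39 C (saline heat, the environmentally induced hyperthermia or EIH group of the labels, 16 rats), and AMPH at 22.5 C (AMPH hyperthermic, 22 rats) or at 16 C (AMPH normothermic, 15 rats). No group was free of injection and handling, AMPH was never given at 39 C, and saline heat and both AMPH groups were therefore compared with saline rats that differed in drug, in temperature or in both.

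Of the 9 members, 3 passed a test between groups: Cxcr4 in 2 comparisons, and Cxcr2 and Cxcr3 in 1 each. In saline heat against saline control (Cxcr4 and Cxcr3) 15.7% of 12986 genes passed. In AMPH normothermic against saline heat (Cxcr4 and Cxcr2) 10.6% of 12473 did. Of 10 other settings of the former, 8 lost Cxcr3 and 7 Cxcr4. Of 6 other settings of the latter, 3 lost Cxcr2 and 1 Cxcr4. The bases upstream of the annotated starts of these 3 members are given so that the sequence can be read beside their counts. They are RefSeq's for the build GRCr8, which is not the build of the counts (rn5), and each run holds the 250 bases before the start, 5′ to 3′ on the gene's strand. Cxcr4 lies at chr13:42634289-42634538 on the minus strand, Cxcr2 at chr9:83178395-83178644 on the plus strand and Cxcr3 at chrX:70886945-70887194 on the minus strand. Capitals mark matches, on either strand, to 4 short motifs.
Cxcr4: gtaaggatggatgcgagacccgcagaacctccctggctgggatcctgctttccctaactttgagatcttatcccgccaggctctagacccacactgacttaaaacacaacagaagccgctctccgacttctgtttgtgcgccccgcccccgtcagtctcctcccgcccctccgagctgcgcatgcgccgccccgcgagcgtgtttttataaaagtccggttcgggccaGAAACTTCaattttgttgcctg
Cxcr2: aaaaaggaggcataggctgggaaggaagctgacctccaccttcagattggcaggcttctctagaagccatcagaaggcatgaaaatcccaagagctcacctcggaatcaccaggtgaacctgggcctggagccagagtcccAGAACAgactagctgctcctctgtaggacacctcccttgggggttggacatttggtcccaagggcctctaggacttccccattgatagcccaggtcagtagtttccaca
Cxcr3: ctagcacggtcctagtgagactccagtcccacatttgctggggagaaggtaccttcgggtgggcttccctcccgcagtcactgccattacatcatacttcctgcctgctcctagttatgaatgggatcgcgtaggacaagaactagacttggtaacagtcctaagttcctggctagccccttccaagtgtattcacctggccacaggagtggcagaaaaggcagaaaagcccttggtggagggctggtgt
The motifs were the heat shock element GAANNTTC, the hypoxia response element core ACGTG, the PU.1 core GAGGAA and the glucocorticoid half-site AGAACA. The capitals in Cxcr4 are a heat shock element beginning 22 bases before the start, and the same letters stand in 7.23% of 33469 promoters of this length. The capitals in Cxcr2 are a glucocorticoid half-site beginning 109 bases before the start, a motif held by 17.5% of those promoters. None of the 4 motifs matched in Cxcr3. Of the 8 members with a promoter entry, 1 held the heat shock element, 2 the glucocorticoid half-site, 3 the PU.1 core (23.3% of all promoters) and 0 the hypoxia core (16.6%). No matches overlapped in the runs shown, and a match of letters is a description of the window only.

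Libraries held 19055615 to 40530319 counts. Of the 64 rats, 5 had over 5000 counts of Mb, the myoglobin gene of heart muscle that a cardiac puncture can carry into the blood, and were set aside (2 saline control, 1 saline heat, 2 AMPH normothermic), leaving 59 rats with 4 saline controls. Markers of neutrophils, monocytes, T cells, B cells and NK cells were present in every group, with no marker of these lists at 0 in all rats of a group. Each deposited file name opens with a code, and the sources used here do not say what it stands for. Saline control rats carried 2 of the 14 codes and saline cool rats 1 other, so that saline heat and saline cool shared no code with saline control, and treatment and code cannot be told apart in those comparisons. AMPH hyperthermic, AMPH normothermic and saline heat rats shared several codes and were compared with code as a term of the fit.

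A few rats went against their group and bear on the receptors. AMPH hyperthermic rat 21, the only rat of its code, had 0 counts of both Ccr9 and Cxcr6 and the lowest Cxcr2 and Cxcr4 levels of its group. Saline control rat 19 had the highest levels of its group for Ccr1 (5942) and Cxcr2 (7320), and AMPH hyperthermic rat 17 had the lowest level of its group for Ccr1 (1552). The myeloid minus lymphoid marker difference (log2) was 1.39 in saline control rat 19, the highest of its group, and -1.3 in AMPH hyperthermic rat 17, the lowest of its group, where the group medians were -0.249 and 2.01. Whether the labels of these 2 rats were exchanged was not tested, and the direction of every comparison with saline control is drawn with rat 19 as labelled. Both were picked out by these same values, so fits of Ccr1 and Cxcr2 without them are no separate evidence. Values are counts divided by a size factor for each library (normalized counts), so they compare rats for 1 gene but not genes with each other.

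**Figure D1:**
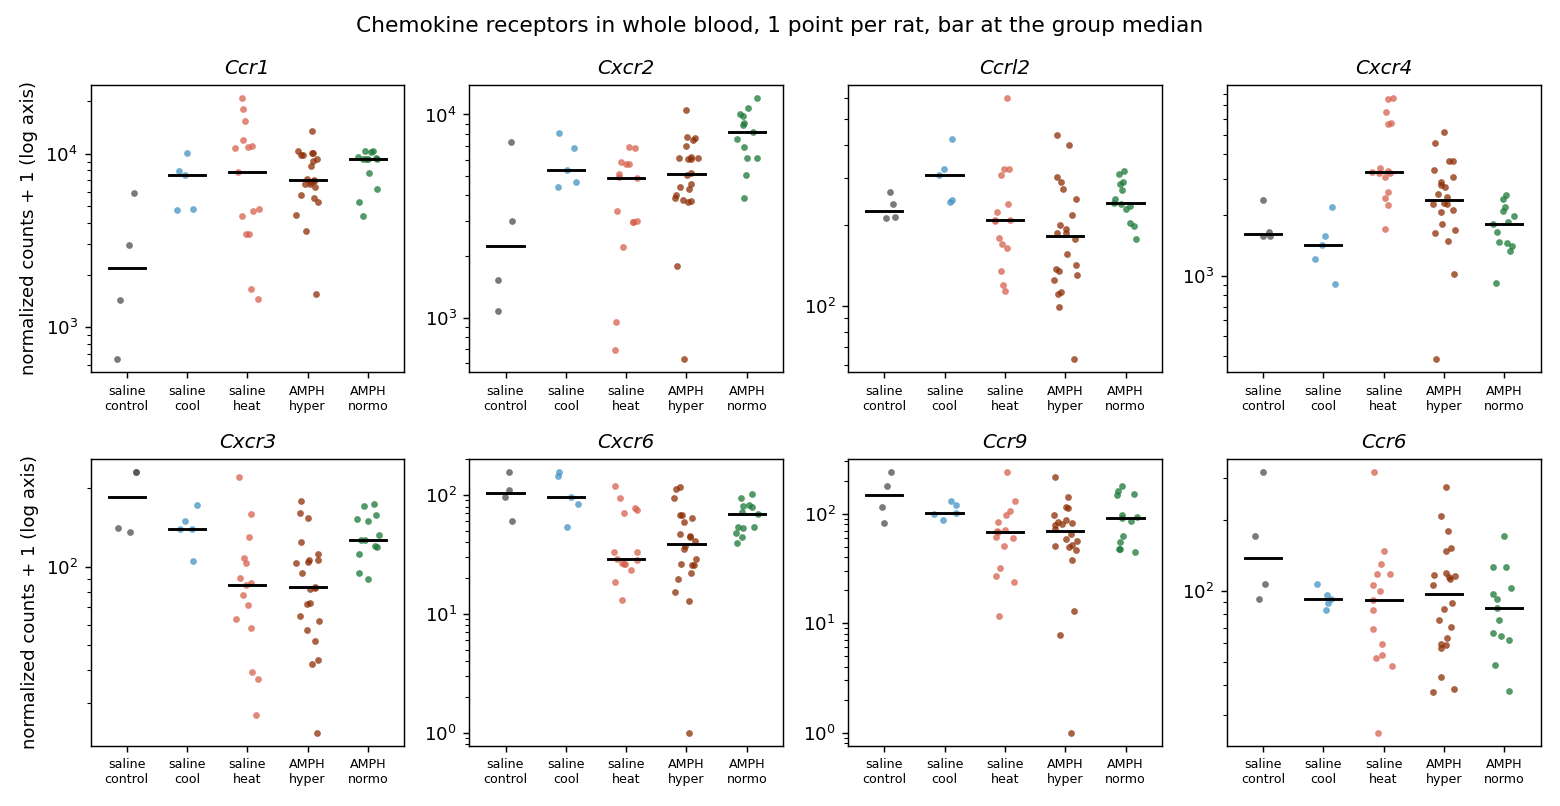
Normalized counts plus 1 (log axis) of the 8 receptors that could be tested, in the 59 rats used, with 1 point per rat and a bar at the group median. The 4 saline control rats sit low for Ccr1 and Cxcr2 apart from rat 19, the saline heat points of Cxcr4 reach 7617, and the 2 points at the floor of Ccr9 and Cxcr6 are AMPH hyperthermic rat 21.

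Cxcr4 was highest in saline heat rats, with AMPH hyperthermic next, and the other 3 groups had medians of 1410 (saline cool), 1611 (saline control) and 1806 (AMPH normothermic), with overlapping ranges. In saline control it stood at 1649, 1569, 1572 and 2370 normalized counts, and in saline cool at 1210, 1410, 2202, 1569 and 906. In saline heat it ranged from 1703 to 7617 with a median of 3281 (n = 15), and 13 of the 15 rats lay above every saline control. AMPH hyperthermic rats ranged from 384 to 5155 with a median of 2377 (n = 22), and AMPH normothermic rats from 921 to 2509 with the same median of 1806 given above (n = 13). Saline heat and AMPH normothermic overlapped only between 1703 and 2509, with 6 of 13 AMPH normothermic rats below every heated rat and none above the saline heat median.

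The myeloid receptors ordered the 5 groups differently, although Ccr1 and Cxcr2 both had their lowest median in saline control. Ccr1 medians ran from 2190 in saline control through 7011 in AMPH hyperthermic, 7502 in saline cool and 7872 in saline heat to 9354 in AMPH normothermic, and the last 4 overlapped widely. Its range was 4362 to 10399 in AMPH normothermic and the widest of the 5 groups in saline heat (1444 to 20938). Cxcr2 medians ran from 2256 in saline control through 4876 in saline heat, 5097 in AMPH hyperthermic and 5332 in saline cool to 8169 in AMPH normothermic. Ccrl2 ran the other way for the AMPH hyperthermic group, with medians of 182 there, 208 in saline heat, 226 in saline control, 241 in AMPH normothermic and 307 in saline cool.

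The lymphoid receptors were highest in saline control by median and, Ccr6 apart, lowest in saline heat and AMPH hyperthermic. Cxcr3 medians were 184 in saline control, 139 in saline cool, 126 in AMPH normothermic, 84.4 in saline heat and 82.6 in AMPH hyperthermic. Cxcr6 medians were 102, 95.0, 68.3, 27.7 and 38.1 in the same order of groups, and those of Ccr9 were 146, 101, 90.5, 67.0 and 67.7. For all 3 the saline heat and AMPH hyperthermic medians were neighbours whose ranges overlapped almost entirely. Ccr6 had 138 in saline control and between 83.8 and 96.6 in the other 4 groups, with no order beyond their spread. Against the 4 saline controls, 19 of all 22 AMPH hyperthermic rats lay below every control for Cxcr3, 16 for Cxcr6 and 15 for Ccr9, and 16 lay above every control for Ccr1. Most of the 22 shared no file code with any control, so drug and code cannot be told apart in these counts. In the 8 of them whose identifiers end in the same letter as the controls', the counts were 6, 4, 5 and 6.

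Between AMPH normothermic and saline heat, fitted over 41 rats of 9 codes with edgeR's quasi-likelihood test, Cxcr4 differed by a log2 fold change of -1.05 ± 0.22 (SE, adjusted p = 0.00106), a 2.07-fold lower level in AMPH normothermic. A gene was called when its adjusted p was under 0.05 and its log2 fold change lay past 0.58 in either direction. By that rule 5.39% of the 12473 genes tested were called higher and 5.2% lower, and of the 8 members tested 1 was called in each direction. Within the 5 codes holding rats of both groups, Cxcr4 was lower in AMPH normothermic in 5 of 5, by -0.21 to -1.89 as a difference of mean log2 levels. The plot by code shows the narrowest gap in code C, where means were 2332 and 2729, and wide gaps in code E, with 1814 and 6490, and code G, with 921 and 3423. Each of those last codes held only 1 heated rat.

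Cxcr2, the receptor through which neutrophils answer Cxcl1 and related ligands, went the other way in that comparison. AMPH normothermic rats had 3888 to 12053 normalized counts with a median of 8169, and saline heat rats 688 to 6926 with a median of 4876. Of 13 AMPH normothermic rats, 9 lay above every heated rat. The log2 fold change was 0.69 ± 0.24 (adjusted p = 0.0451), and Cxcr2 was higher in AMPH normothermic in 5 of 5 codes, by 0.19 to 1.6 on the log2 scale. The adjusted p was 0.0512 with DESeq2's size factors and 0.0613 without a filter on low counts, so this call sits at the threshold.

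**Figure D2:**
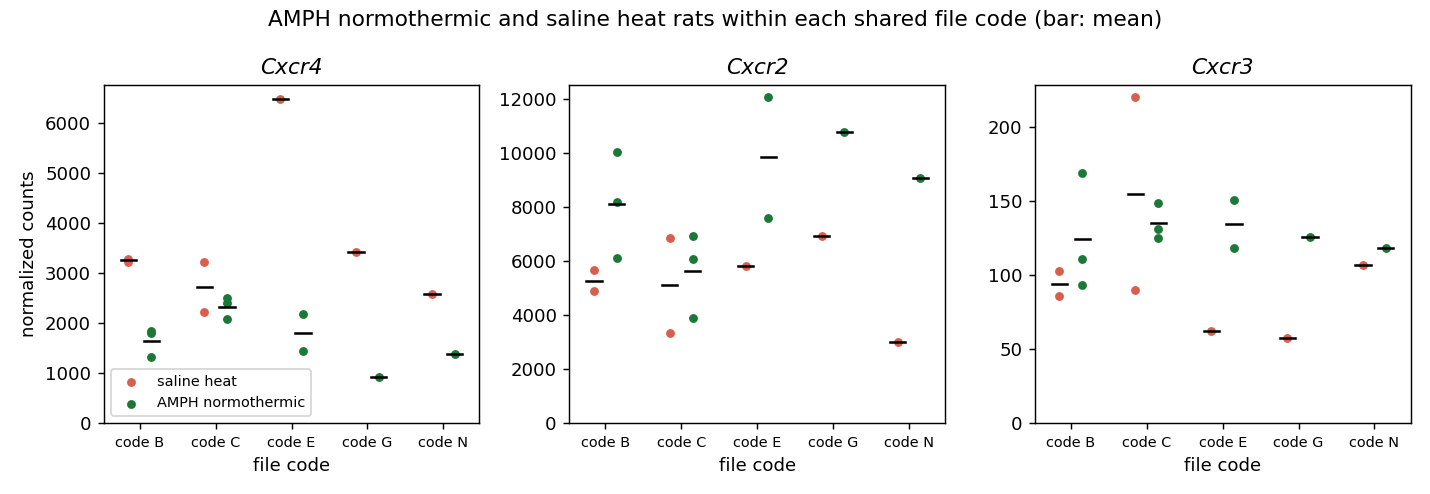
Normalized counts of Cxcr4, Cxcr2 and Cxcr3 in saline heat (red) and AMPH normothermic (green) rats within each of the 5 file codes (horizontal axis) that hold rats of both, with 1 point per rat and a bar at the mean. Cxcr4 means are lower and Cxcr2 means higher in AMPH normothermic in every code, whereas Cxcr3 means are lower in AMPH normothermic in code C.

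The other members did not pass between AMPH normothermic and saline heat. Ccr1, a monocyte and neutrophil receptor for Ccl3 and Ccl5, had a log2 fold change of 0.06 ± 0.33 (adjusted p = 0.929), and Ccrl2, which binds chemerin and presents it to other cells without signalling itself, 0.43 ± 0.21 (0.174). The lymphoid receptors had log2 fold changes of 0.02 ± 0.31 for Ccr6, 0.32 ± 0.31 for Cxcr6, 0.41 ± 0.28 for Cxcr3 and 0.44 ± 0.34 for Ccr9, all positive, with adjusted p from 0.366 to 0.977. Their median was 0.364, beside a median of 0.000241 over all genes. Cxcr3 and Cxcr6 were above the saline heat median in 13 of 13 AMPH normothermic rats, while the saline heat ranges of 26.0 to 221 and 12.0 to 118 held them all.

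Cell type markers moved in the same comparison. The neutrophil genes S100a8 (log2 fold change 1.61), S100a9 (1.18) and Il1r2 (1.29) were higher in AMPH normothermic among 10 tested, 2 of 8 NK entries (Ncr1 and Klrb1a) and 1 of 11 T-cell markers (Cd2) were higher, and among the monocyte markers Cd163 was higher and Csf1r lower. The summed neutrophil list ran from 62333 to 352138 normalized counts in saline heat and from 249746 to 765276 in AMPH normothermic. In whole blood, fewer cells of a type and less RNA per cell cannot be told apart. With the difference between myeloid and lymphoid marker levels added to the fit, Cxcr4 was -1.05 (adjusted p = 0.00102) and Cxcr2 0.71 (adjusted p = 0.0224). That marker difference had medians of 1.94 in saline heat and 1.67 in AMPH normothermic, with overlapping ranges. The added term could therefore take up little of the neutrophil change, and the part of cell mix in these values was not tested.

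Against saline control, with which it shared no file code, heat was tested in 15 and 4 rats, and 2 of the 8 members passed: Cxcr4 was higher by a log2 fold change of 1.12 ± 0.36 (adjusted p = 0.0386, 2.17-fold) and Cxcr3 lower by -1.1 ± 0.37 (adjusted p = 0.0482, 2.14-fold). DESeq2's Wald test called 4 members, with Ccr1 (1.66) and Cxcr6 (-1.21) added, and 23.2% of all 12986 genes. It made more false calls than edgeR on data simulated for this comparison. The same saline control rats served here and in the comparisons with saline cool and AMPH hyperthermic. The background by edgeR in this comparison was 7.0% of 12986 genes called higher and 8.66% lower. Cxcr3 stood at 229, 231, 139 and 135 in saline control and at 26.0 to 221 with a median of 84.4 in saline heat, where 13 of 15 rats lay below every control. Cxcr6, at 95.8, 156, 59.6 and 109 in saline control and 12.0 to 118 with a median of 27.7 in saline heat, had the largest negative change of the members, -1.26 ± 0.45, but missed the threshold (adjusted p = 0.0598).

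The remaining lymphoid receptors had negative values as well and did not pass. Ccr9 had a log2 fold change of -1.12 ± 0.48 (adjusted p = 0.103), with 240, 81.6, 113 and 179 in saline control and a median of 67.0 in saline heat. Ccr6 had -0.83 ± 0.44 (adjusted p = 0.174), with 169, 318, 106 and 91.7 in saline control and a median of 90.3 in saline heat. The 4 lymphoid receptors thus had a median log2 fold change of -1.11, beside -0.00987 over all genes, with 1 of 4 called.

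The myeloid receptors did not share a direction under heat. Ccr1 stood at 652, 1427, 5942 and 2953 in saline control and at 1444 to 20938 with a median of 7872 in saline heat, a log2 fold change of 1.6 ± 0.68 that did not pass (adjusted p = 0.0997). Without saline control rat 19 it was 2.32 (adjusted p = 0.0516). Cxcr2 had 0.29 ± 0.51 (adjusted p = 0.701), or 1.09 without rat 19 (adjusted p = 0.175), and Ccrl2 -0.08 ± 0.31 (adjusted p = 0.878). The spread of Ccr1 among heated rats was itself wide, with an SD of 6094 around a mean of 8728.

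Both calls under heat depended on the 4 controls. Leaving out saline control rat 17, 18, 19 or 21 gave Cxcr4 values of 1.10, 1.06, 1.06 and 1.28 with adjusted p = 0.124, 0.12, 0.0827 and 0.0649, and Cxcr3 values of -0.96, -0.97, -1.21 and -1.22 with adjusted p = 0.181, 0.156, 0.0551 and 0.0761. Fitted over all groups with file code as a term, Cxcr4 was 1.11 (adjusted p = 0.0839) and Cxcr3 -1.02 (adjusted p = 0.158). With the 2 saline controls and the heated rat of high Mb put back, 6 of the 8 members passed (Ccr1 and Cxcr4 higher, Ccr6, Ccr9, Cxcr3 and Cxcr6 lower). In that fit 28.8% of all 12811 genes were called, against 15.7% in the main fit.

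T-cell markers were lower in the same rats. Of 11 T-cell markers 9 were called lower, among them Cd3e (-1.68) and Cd5 (-1.69), as were 4 of 8 NK entries, and 5 of 6 platelet markers were called higher. The summed T-cell list ran from 12030 to 18766 normalized counts in saline control and from 2111 to 11591 in saline heat, with no overlap. When the myeloid minus lymphoid marker difference entered the fit, Cxcr3 moved to -0.26 (adjusted p = 0.71) and Cxcr6 to -0.45 (0.652), while Cxcr4 stayed at 1.02 but was no longer called (0.193). Ccr1 likewise moved from 1.6 to 0.14 (0.889). Over all genes the added term took the share called from 15.7% to 0.647%. The marker difference itself differed between the groups, with medians of -0.249 in saline control and 1.94 in saline heat. The part of cell mix in these values was not tested.

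**Figure D3:**
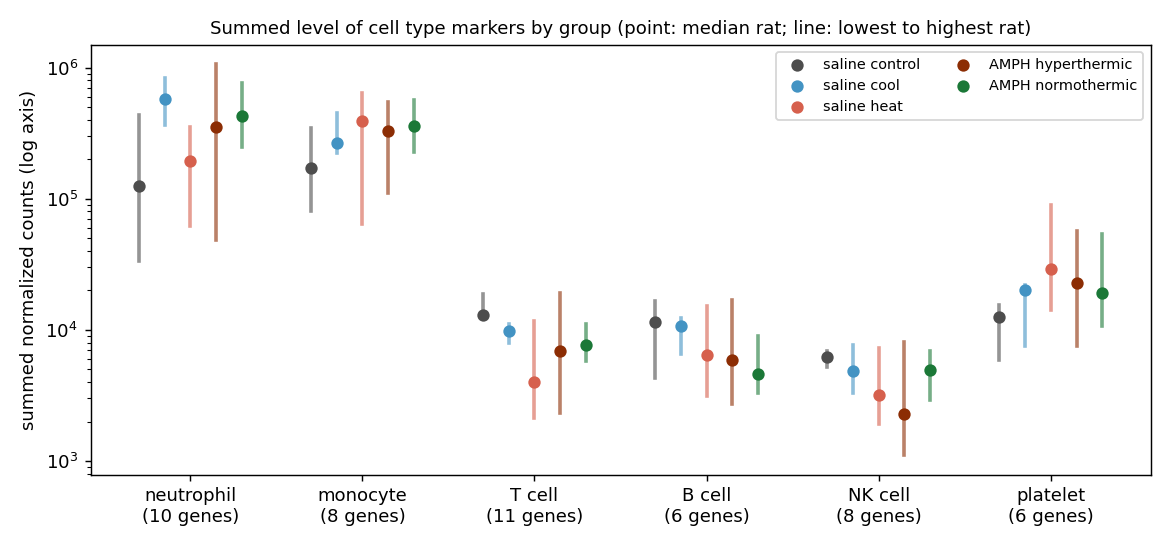
Summed normalized counts (log axis) of the markers of 6 cell types by group, with a point at the median rat and a line from the lowest to the highest rat. The T-cell sum of saline control, 12030 to 18766, lies above that of saline heat, 2111 to 11591, and the neutrophil sum of saline cool reaches down only to 364661.

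Between AMPH hyperthermic and saline heat, the 2 groups with raised body temperature, no member passed in the fit with code by edgeR (adjusted p from 0.22 to 0.957), beside 1.0% of 12275 genes called higher and 0.644% lower. At an unadjusted p under 0.05 lay 1 member, Cxcr4, with a log2 fold change of -0.47 ± 0.21 (adjusted p = 0.22). Cxcr4 was lower in AMPH hyperthermic in 6 of the 7 shared codes, by -0.30 to -1.75, and higher by 0.27 in code A. In a fit that both dropped the code term and took in all 22 AMPH hyperthermic rats (50 rats in all), it was called lower (-0.66, adjusted p = 0.0358). That fit called 5.17% of 12435 genes. The lymphoid receptors differed little, from -0.05 ± 0.27 for Cxcr3 to 0.17 ± 0.32 for Ccr9, and their ranges overlapped. DESeq2's Wald test called 0 members here. Of the cell type markers, S100a8 was higher (1.12) and Itgax lower (-0.65) in AMPH hyperthermic.

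AMPH hyperthermic and AMPH normothermic rats received the same drug at 22.5 C and 16 C. By edgeR no member passed between them, with 3 at an unadjusted p under 0.05, beside 3.65% of 12473 genes called higher in AMPH hyperthermic and 3.6% lower. The 3 tested myeloid receptors all had negative values: Ccrl2 -0.6 ± 0.20 (adjusted p = 0.0547), Cxcr2 -0.56 ± 0.23 (0.118) and Ccr1 -0.2 ± 0.33 (0.788). Ccrl2 was 62.3 to 436 with a median of 182 in AMPH hyperthermic and 176 to 320 with a median of 241 in AMPH normothermic, and was lower in AMPH hyperthermic in 5 of 5 shared codes. Cxcr2 and Cxcr3 were lower there in 5 of 5 codes too, Cxcr2 by -0.22 to -1.53 and Cxcr3 by -0.21 to -0.89.

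Cxcr4 had the opposite sign, 0.58 ± 0.22 (adjusted p = 0.0821), and was higher in AMPH hyperthermic in 5 of 5 codes, by 0.48 to 1.41. DESeq2's Wald test called Cxcr4 higher (adjusted p = 0.0446) and Ccrl2 lower (0.0328), and the marker difference as a covariate brought a call of Cxcr2 lower (-0.69, 0.0312). Of all 12473 genes these settings called 8.77% and 7.91%. Of the lymphoid receptors, Cxcr3 had -0.47 ± 0.26 (0.284), Cxcr6 -0.36 ± 0.30 (0.509), Ccr9 -0.27 ± 0.33 (0.683) and Ccr6 0.03 ± 0.29 (0.972). NK markers were lower in AMPH hyperthermic in the same fit, with 4 of 8 called and Ncr1 at -1.66. The 3 comparisons among saline heat and the AMPH groups share their rats, and their values are not independent of each other.

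**Figure D4:**
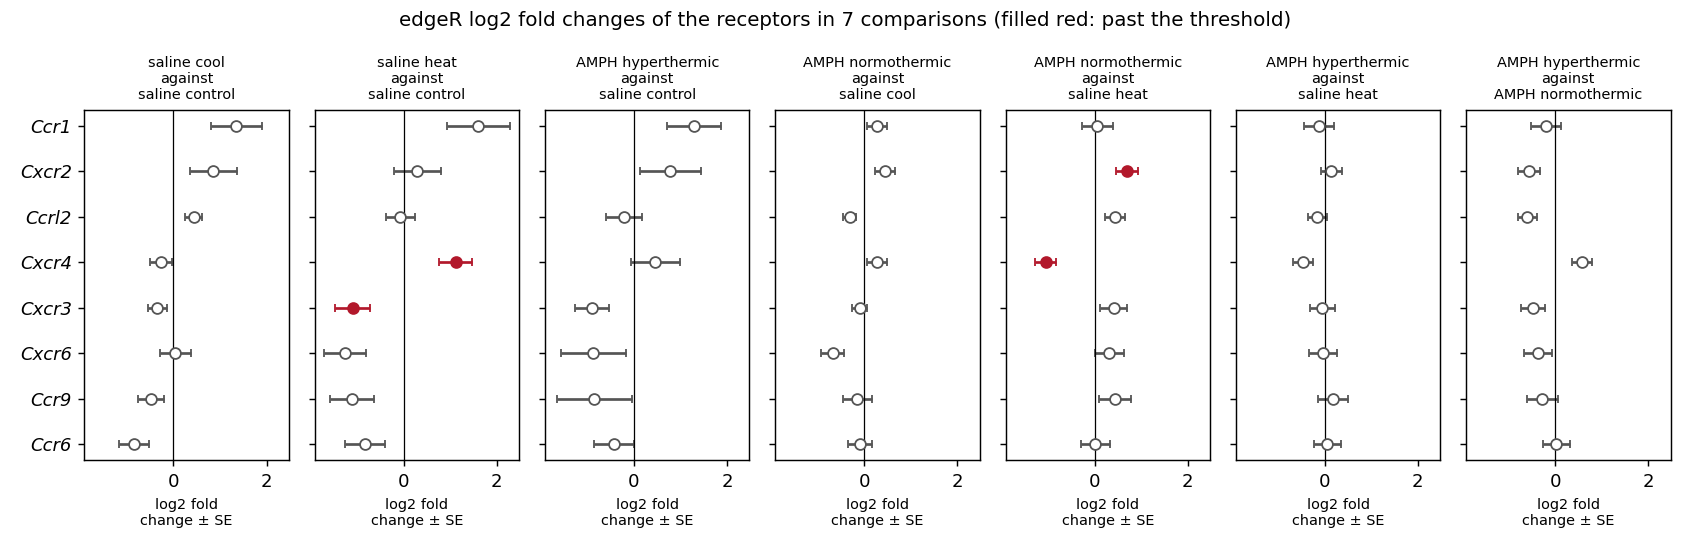
edgeR log2 fold changes (horizontal axes) with bars of 1 SE for the 8 tested receptors in 7 comparisons, filled red where the call rule was met. Cxcr4 and Cxcr3 are filled for saline heat against saline control (1.12 and -1.1) and Cxcr2 and Cxcr4 for AMPH normothermic against saline heat (0.69 and -1.05).

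The effect of AMPH at 22.5 C was tested on the 8 AMPH hyperthermic rats whose identifiers end in the same letter as those of the saline controls, against 4 saline controls. No member passed by edgeR, with 2 at an unadjusted p under 0.05, or by DESeq2's Wald test. Over all 12853 genes edgeR called 0.0% higher or lower, with 1335 at an unadjusted p under 0.05, and DESeq2 called 195 higher and 6 lower. Ccr1 had the largest value, 1.28 ± 0.58 (p = 0.0439, adjusted p = 0.477). AMPH rats 15 to 22 held 9035, 9804, 1552, 6841, 10013, 6390, 3598 and 7039 normalized counts, of which 6 of 8 exceeded every control. Ccr1 was higher in AMPH rats in both codes that held rats of both groups, by 1.25 and 1.82. With saline control rat 19 and AMPH rat 17 left out, Ccr1 was 2.16 (adjusted p = 0.0401). Those rats were picked for levels opposite to their groups, Ccr1 among them, so this rise is built in and is no separate evidence. With all 22 AMPH rats, most of which shared no code with the controls, Ccr1 was 1.44 (adjusted p = 0.0432) without a code term. That fit called 5.77% of 13539 genes. Over all rats with the code term no member was called.

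The lymphoid receptors in the same rats had negative values, with a median of -0.867 beside -0.0106 over all genes. Of the cell type markers none was called, with values below 0 for 11 of 11 T-cell (median -0.798) and 8 of 8 NK entries (-0.947) and above 0 for 9 of 10 neutrophil markers (1.11). Their part in the members' values was not tested beyond the marker covariate, with which 0 members were called. Cxcr3 was 71.8, 105, 160, 154, 42.7, 106, 102 and 41.3 in the 8 AMPH rats, and 6 of 8 lay below every control. Its log2 fold change was -0.91 ± 0.36 (p = 0.0259, adjusted p = 0.451). With all 22 AMPH rats, again without a code term, it was -1.03 (adjusted p = 0.0475), a call not kept over all rats with that term. Cxcr6 had -0.88 ± 0.69, Ccr9 -0.86 ± 0.81 and Ccr6 -0.43 ± 0.44. The means of the first 2 rest in part on AMPH rat 21, without which Cxcr6 averaged 64.7 ± 36.7 in place of 56.6 ± 41.0 (SD, n = 7 and n = 8). The log2 fold changes without it were -0.68 for Cxcr6 (adjusted p = 0.41) and -0.65 for Ccr9 (adjusted p = 0.536). Cxcr2 was 0.78 ± 0.66, or 1.73 without saline control rat 19 and AMPH rat 17 (adjusted p = 0.161), Cxcr4 0.46 ± 0.53 and Ccrl2 -0.22 ± 0.39, with adjusted p from 0.598 to 0.814.

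The effect of AMPH at 16 C was tested in 13 AMPH normothermic and 5 saline cool rats. All 5 saline cool rats carried 1 file code, which 1 of the AMPH normothermic rats shared, and the fit had no code term, so drug and code can hardly be told apart. No member passed by edgeR, with 2 at an unadjusted p under 0.05, or by DESeq2's Wald test, beside 0.234% of 12396 genes called higher and 0.202% lower. Cxcr6 had the largest value, -0.68 ± 0.24 (adjusted p = 0.187), with 95.0, 53.0, 155, 143 and 82.7 in saline cool and 38.3 to 101 with a median of 68.3 in AMPH normothermic. Cxcr2 had 0.44 ± 0.21 (adjusted p = 0.329) and was 5332, 4635, 8094, 6862 and 4403 in saline cool, where 7 of 13 AMPH normothermic rats exceeded every rat. Ccrl2 had -0.32 ± 0.15 (adjusted p = 0.304), with 244, 419, 249, 307 and 323 in saline cool and 7 of 13 AMPH normothermic rats below them all. Ccr1, Cxcr4, Cxcr3, Ccr9 and Ccr6 lay between -0.15 and 0.27. Over all groups with the code term, Cxcr6 was -1.40 (adjusted p = 0.348) and Ccr9 -1.52 (adjusted p = 0.378).

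The drug effect at 22.5 C minus that at 16 C, fitted over 59 rats with code as a term, was passed by no member and by 0.0% of 14000 genes with edgeR. At an unadjusted p under 0.05 lay 0 members and 1034 genes, and DESeq2's Wald test called 0 members and 21 genes higher and 29 lower. For the members it ranged from -0.84 ± 0.66 for Ccr6 to 0.87 ± 0.81 for Ccr1, with 0.75 ± 0.52 for Cxcr4.

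Cool housing alone, in 5 saline cool and 4 saline control rats, was followed by no call among the members by edgeR, with 3 at an unadjusted p under 0.05, or by DESeq2's Wald test. Over 12238 genes edgeR called 0.0% higher and 0.00817% lower, with 3197 at an unadjusted p under 0.05, and DESeq2 called 667 higher and 393 lower. Saline cool and saline control shared no file code. All 3 tested myeloid receptors had positive values: Ccr1 1.35 ± 0.55 (adjusted p = 0.161), Cxcr2 0.86 ± 0.51 (0.298) and Ccrl2 0.44 ± 0.18 (0.159). Ccr1 was 4703, 7502, 10091, 7956 and 4800 in saline cool, and 3 of 5 rats lay above every control. Without saline control rat 19 Ccr1 was 2.12 (adjusted p = 0.0178) and Cxcr2 1.71 (0.014), both called higher. In that fit 1291 genes were called higher and 550 lower, 14.8% of 12452. Rat 19 was the highest control for both genes, so leaving it out raises both values by itself. Among the lymphoid receptors Ccr6 had the largest value, -0.85 ± 0.32 (0.135), with 82.3 to 106 in saline cool. The summed neutrophil list moved with Ccr1 and Cxcr2, at 364661 to 832587 in saline cool against 33491 to 432432 in saline control. With the marker difference in the fit Ccr1 was 0.69 (adjusted p = 0.531) and Cxcr2 0.23 (0.806). That difference had medians of 1.3 in saline cool and -0.249 in saline control, and the part of cell mix was not tested.

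Cxcr1, the other receptor of neutrophils for Cxcl8-type ligands, was close to undetected. It had at most 10 counts in a library and 0 in 34 of 59 rats, averaging 1.04 normalized counts, and it passed the filter on low counts in no comparison. A library with 0 counts of it allows up to 3, by counting error alone. Cxcr1 and Cxcr2 are close relatives, and reads that match more than 1 gene were shared out between genes by the counting program, so that these few counts are uncertain.

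Across rats of the same group, Ccr1 and Cxcr2 varied together under heat, and the other pairs gave no relation common to the 3 large groups. Pearson and Spearman correlations of log2 normalized counts plus 1 were computed for 4 pairs in saline heat, AMPH hyperthermic and AMPH normothermic, 12 relations in all, with permutation tests adjusted over the 12. Ccr1 and Cxcr2 had r = 0.915 and rho = 0.846 in saline heat (n = 15, adjusted permutation p = 0.00012 and 0.00072), r = 0.856 without the 2 rats farthest from the median of Ccr1, and 0.949 after centring within codes. The unadjusted p of r was 1e-05, the smallest the permutations can give. In AMPH hyperthermic r was 0.642 and rho 0.53 (adjusted permutation p = 0.0399 and 0.0361), with r = 0.328 without the 2 farthest rats, on which the pooled value rests, and 0.907 within codes (16 rats). In AMPH normothermic r was 0.497 and rho 0.368 (adjusted permutation p = 0.124 and 0.327).

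Cxcr2 and Cxcr4 ran opposite to each other in AMPH normothermic rats, with r = -0.687 and rho = -0.769 (n = 13, adjusted permutation p = 0.0399 and 0.0129), -0.742 without the 2 rats farthest from the median of Cxcr2 and -0.717 within codes. In saline heat the same pair had r = -0.113 and rho = 0.0464 (adjusted permutation p = 0.835 and 0.872). In AMPH hyperthermic it had r = 0.421 and rho = -0.169 (0.12 and 0.539 after the same adjustment of the permutation tests), -0.586 without the 2 farthest rats, on which the pooled value rests, and -0.218 within codes. Cxcr3 and Cxcr6 had r = 0.445 and rho = 0.811 in AMPH hyperthermic (adjusted permutation p = 0.105 and 0.00024), with r = 0.346 without the 2 rats farthest from the median of Cxcr3 and 0.921 within codes, and r = 0.581 in saline heat and 0.362 in AMPH normothermic (adjusted permutation p = 0.0676 and 0.298). Cxcr2 and Cxcr3 had r between -0.517 and 0.01 (adjusted permutation p from 0.121 to 0.972). Their rho was -0.232 in saline heat, 0.125 in AMPH hyperthermic and -0.593 in AMPH normothermic (adjusted permutation p = 0.539, 0.633 and 0.073). Within codes r was -0.148, -0.211 and -0.745 in the same order.

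For the 6 members averaging 100 or more normalized counts, the genes whose levels ordered the 59 rats most alike were taken from 8015 others, as a description over rats that share groups and codes. Among the 3 closest to Cxcr2 were Lbr (Spearman rho 0.905) and Nlrp3 (0.888). Ccr1 was closest to Lamp2 (0.882), an unnamed gene (ENSRNOG00000049381, 0.879) and Fbxl5 (0.869). Cxcr3 was closest to the T-cell genes Cd5 (0.822) and Txk (0.82) and to ENSRNOG00000039306 (0.813). Cxcr4 was closest to Dgkd (0.83), ENSRNOG00000034093 (0.819) and Hspe1 (0.815), the mitochondrial co-chaperone Hsp10. Values were lower for Ccrl2, led by RGD1305089 (0.705), and for Ccr6, led by Ltn1 (0.705).

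Among other chemokine receptors, 10 of 15 sought had an entry. Ccr7, which takes naive T cells to lymph nodes, was called lower in saline heat than in saline control (-1.5 ± 0.39, adjusted p = 0.0165), at mean levels of 620 and 1681. That call was lost in 4 of 10 other settings, namely with the marker difference in the fit (-0.74, adjusted p = 0.293), with the code term (0.0767) and without saline control rat 17 (0.0902) or 18 (0.0618). Ccr3, the eosinophil receptor, was lower in AMPH hyperthermic than in AMPH normothermic (-2.27 ± 0.44, adjusted p = 0.000799) and higher in AMPH normothermic than in saline heat (1.58 ± 0.45, adjusted p = 0.0141), with means of 27.5, 108 and 27.9 in AMPH hyperthermic, AMPH normothermic and saline heat. Xcr1 had the same order (-0.94 and 0.9), and the chemerin receptor Cmklr1 was lower in AMPH normothermic than in saline heat (-1.22 ± 0.40).

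Of 33 ligands sought, 13 to 21 could be tested in a comparison. Those stored in platelets were higher in saline heat than in saline control, Ppbp by 3.05 ± 0.45 (adjusted p = 0.00116) and Pf4 by 1.4 ± 0.42 (0.0314), in the comparison where 5 of 6 platelet markers were higher. Ppbp was called in 10 of 10 other settings, whereas Pf4 was lost in 5 (adjusted p from 0.0908 to 0.171), with the marker difference, with the code term and without saline control rat 17, 18 or 21. Ppbp, whose products act on Cxcr2, was also higher in AMPH hyperthermic than in AMPH normothermic (1.3 ± 0.28). Ccl5, a Ccr1 ligand of T and NK cells, was lower in saline heat than in saline control (-1.18 ± 0.33, lost in 4 of 10 other settings) and in AMPH hyperthermic than in AMPH normothermic (-1.45 ± 0.29), and higher in AMPH normothermic than in saline heat (1.05 ± 0.31). Ccl6 followed it in the last 2 (-1.31 and 1.42). Cxcl1, a Cxcr2 ligand, was called higher in AMPH hyperthermic than in AMPH normothermic (3.38 ± 0.99) at means of only 27.1 and 3.47. Cxcl10, a Cxcr3 ligand, was lower in AMPH normothermic than in saline cool (-2.48 ± 0.42, adjusted p = 0.0144), at means of 23.6 and 132. It was lost in 2 of 11 other settings, without saline cool rat 2 (-2.01, adjusted p = 0.0826) and with the code term (-3.23, adjusted p = 0.184).

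Of the 24 genes of receptor signalling with an entry, all were tested. Rgs18, a brake on G protein signalling in platelets, Gnb1 and the receptor kinase Grk5 were higher in saline heat than in saline control (1.73 ± 0.43, 0.84 ± 0.26 and 0.87 ± 0.29). Of 10 other settings, 4 lost the call of Rgs18, 5 that of Gnb1 and 6 that of Grk5, among them for all 3 the marker difference, the code term and leaving out saline control rat 17 or 21. Prex1, the Rac activator downstream of PI3-kinase gamma, was lower than in saline heat in both AMPH groups (-0.85 ± 0.18 in AMPH hyperthermic and -0.67 ± 0.19 in AMPH normothermic), although not in the fits of 50 rats without the code term (-0.55 and -0.30, adjusted p = 0.11 and 0.413). Pik3cg and Arrb1 were lower in AMPH normothermic than in saline heat (-0.76 ± 0.22 and -0.8 ± 0.28). The medians of this list lay between -0.101 and 0.349 over the 8 comparisons.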

How the data were processed

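Globin-depleted, polyadenylated RNA of whole blood from 64 rats was sequenced as 1 library per rat. The authors aligned reads to rn5 with Bowtie 0.12.9 (CASAVA 1.8.2 before it) and deposited RSEM 1.2.0 expected counts per gene, with no normalization. The library kit marks strand, whereas RSEM was run with default settings, which do not use it. The files held 6 different gene lists, and 17366 genes were in all of them.

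Expected counts were rounded. Rats with over 5000 Mb counts, the study's own criterion, were left out. Levels are counts divided by DESeq2 1.42.0 size factors. Tests used edgeR 4.0.16 (R 4.3.3), TMM scaling, the quasi-likelihood test and Benjamini-Hochberg adjustment over all genes with at least 10 counts in as many rats as the smaller group, and called an adjusted p under 0.05 with a log2 fold change past 0.58. The fits among saline heat and the AMPH groups, and that of the difference of drug effects, had file code as a term. For 3 of the 8 comparisons the fit was tested on simulated data. Permutation tests were two-sided with 100000 permutations. The limit given for Cxcr1 in a library without counts covers counting error only. SEs of log2 fold changes come from the quasi-likelihood test and include the spread between rats. No sample's labels say whether rats shared a cage or day, and p-values measure the spread between these rats.

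The members, lists and tests were chosen with earlier results of these data known. The genes named were all members, up to 4 genes per list and comparison with the smallest adjusted p among those called, and the 3 genes closest to each member, of which a few are not reported here. Marker genes were named after their values were seen. The alternatives were DESeq2's size factors and Wald test, no filter, a marker covariate, file code in or out, a replicate block, the Mb criterion, leaving out rats, and all AMPH rats.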

Additional observations from a re-analysis of the deposited data

Results flagged for a closer look

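Among 24 tests of 8 members in saline control, saline cool and the 8 AMPH hyperthermic rats tested against saline control, 2 values stood apart from their group by Dixon's test on log2 normalized counts plus 1. About 1 in 20 such groups is flagged by chance. Cxcr6 was at 0 in AMPH hyperthermic rat 21 against 25.2 to 115 in the other 7, a gap of 0.688 of the range. Cxcr4 was at 2370 in saline control rat 21 against 1569 to 1649 in the other 3, a gap of 0.879 of the range.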

How the results depend on the processing

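The 64 log2 fold changes of the members gave 664 values under 28 other settings, of which 590 kept direction and side of the threshold, 19 lost a call, 15 gained one and 40 changed sign. None of the 40 was called, and the cause was not tested.

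For saline heat against saline control, the 2 members called became 1 with DESeq2's size factors, 4 with its Wald test, 6 without the Mb criterion, and 0 without the filter on low counts, with the marker covariate, over all rats with the file code term, and without each control (0 to 0). For AMPH normothermic against saline heat, 2 became 1 with DESeq2's size factors and 1 without the filter. AMPH hyperthermic against saline control went from 0 to 2 with all AMPH hyperthermic rats, 1 with saline control 19 and AMPH rat 17 out, and 0 to 0 without each rat (AMPH rats: added after seeing the data). Saline cool against saline control went from 0 to 2 without saline control 19 (range 0 to 2). AMPH hyperthermic against AMPH normothermic went from 0 to 2 with the Wald test and 1 with the marker covariate, and AMPH hyperthermic against saline heat from 0 to 1 over all rats without the file code term. The others stayed at 0.

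Same-numbered rats may vary together (by comparison, 0 of 4 to 3 of 4 pairs correlated over 0.1). With the replicate block, AMPH normothermic against saline heat had 0 members called (Cxcr4 -1.43, adjusted p = 0.16, and Cxcr2 0.73, adjusted p = 0.701), with 50 genes higher and 36 lower. The block changed the sign of Cxcr4 (-0.17) in AMPH hyperthermic against saline control, of Ccr1 (0.12) and Ccr6 (-0.11) against AMPH normothermic, of Ccr1 (0.70), Ccr6 (-0.13) and Cxcr6 (0.050) against saline heat, and of Ccr1 (-0.26) in AMPH normothermic against saline heat. No other member's call changed. For saline heat and saline cool against saline control no block could be fitted, because those groups share no number with saline control.

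With the marker covariate the sign changed for Ccr6 (0.38) in AMPH hyperthermic against saline control, Ccr6 (0.069), Ccr9 (0.17) and Cxcr3 (0.0080) in AMPH normothermic against saline cool, Cxcr2 (-0.51), Ccrl2 (0.14) and Ccr6 (0.16) in saline heat against saline control, Ccr9 (0.063) in AMPH hyperthermic against AMPH normothermic, and Cxcr3 (0.19) and Cxcr6 (0.11) against saline heat. Over all 59 rats with the file code term it changed for Ccr6 (0.39) and Cxcr4 (-0.094) in AMPH normothermic against saline cool and for Ccr9 (0.77) and Cxcr4 (0.14) in saline cool against saline control. Without it, over all rats (more AMPH rats), it changed for Ccr9 (-0.0026), Cxcr3 (0.020) and Cxcr6 (0.011) in AMPH hyperthermic against saline heat, Ccr1 (-0.0068) and Ccr6 (-0.17) in AMPH normothermic against saline heat, and Ccr9 (-0.94) and Cxcr6 (-0.55) in the difference of drug effects. In that difference Ccrl2, at 0, was -0.0063 and -0.0066 with DESeq2's size factors and Wald test, -0.0073 without the filter and -0.055 without the Mb criterion, and Ccr9 -0.088 without saline control 19 and AMPH rat 17. Ccrl2 in saline heat against saline control was 0.0017 and 0.0010 with the size factors and the Wald test. Leaving out single rats gave -0.70 to 0.044 for Ccr6 in AMPH hyperthermic against saline control and -0.14 to 0.29 for Cxcr6 in saline cool against saline control.

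Calls over all genes (higher and lower) for AMPH hyperthermic against saline control (0 and 0) became 550 and 231 with all AMPH rats, 302 and 47 over all rats with the code term (0 and 0 with the term alone) and 383 and 44 without the rats named above. AMPH normothermic against saline cool (29 and 25) had 226 and 122 with the Wald test, 7 and 16 with the covariate, 90 and 26 with the block, 0 and 0 with the code term and 4 and 4 without saline cool 2. Saline heat against saline control (909 and 1125) had 1924 and 1767 without the Mb criterion, 68 and 16 with the covariate, 270 and 130 with the code term and 138 and 132 without saline control 17. Saline cool against saline control (0 and 1) had 58 and 9 without the Mb criterion and 1291 and 550 without saline control 19. AMPH hyperthermic against AMPH normothermic (455 and 449) had 132 and 67 with the block. Against saline heat (123 and 79) it had 0 and 0 with the block, 252 and 391 without the code term (all rats), 211 and 185 with the Wald test and 203 and 141 with the covariate. AMPH normothermic against saline heat (672 and 649) had 943 and 1556 likewise, and the difference of drug effects 20 and 0 without it and 68 and 12 without the rats named above.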
